A study of Canis lupus familiaris with 18 samples.

Results

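The genes described here are the hypoxia response genes measured with VEGFA in canine high grade oligodendroglioma (HGO), a malignant glial tumor of the brain. They were chosen by name, with earlier results of these data known, as VEGFA, ADM, CA9, SLC2A1, HK2, LDHA, EGLN3, NDRG1, ANKRD37 and BNIP3, which makes 10 genes. Of these, 8 were matched by symbol among the 29993 genes of the count table, and all 8 passed the filter on low counts. LDHA and BNIP3 were not matched by symbol and were not analysed here.

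RNASeq counts came from 18 libraries of surgically resected prosencephalic HGO that had been formalin-fixed and embedded in paraffin. The libraries are labelled as 11 French bulldogs and a comparison group of 7 dogs, made up of 4 boxers (numbers 1, 3, 4 and 5) and 3 Boston terriers (numbers 2, 6 and 7). These are pet dogs with spontaneous tumors of 3 related breeds, without any engineered allele. The tumors were resected on entry into clinical trials, no healthy brain was compared, and ages, which the study gives but the labels do not, were not used here. The study asked how gene expression in French bulldog HGO differs from that of the other breeds.

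Cells that lack oxygen stabilise the hypoxia-inducible factors (HIF), transcription factors whose alpha subunits are marked for destruction by oxygen-dependent prolyl hydroxylases when oxygen is plentiful. HIF then turns on genes for new vessels, for glucose uptake and glycolysis, for pH control and for its own feedback inhibition. In gliomas the best known of these targets is VEGFA, the main growth factor for blood vessels, which is often high around necrotic areas. A bulk sample mixes tumor, vessel and immune cells, so fewer cells of a type and less RNA per cell cannot be told apart here.

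Library totals ranged from 8212452 to 13169880 counts, and levels are given as CPM, which are counts scaled to a library of fixed size, here with the trimmed mean of M-values (TMM). A level of 3 counts, taken as the smallest that this depth can show, corresponded to 0.223 to 0.351 CPM. The library of French bulldog 6 stood apart from the other 17. It had no count for OLIG2 and 2 counts for SOX10, both defining transcription factors of the oligodendrocyte lineage, and its summed CPM over 5 oligodendrocyte lineage markers was 42.9, against 943 to 6648 in the other dogs. Its summed CPM over 12 macrophage and microglia markers was 7524, against 74.7 to 468. Not each of these markers was high in it. The microglia markers CX3CR1 and P2RY12 had 2.50 CPM, the lowest of all libraries, and 6.87 CPM, within the range of the others. The values of its lineage markers and the macrophage sum go against its HGO label, and whether it holds tumor tissue was not tested. Results that rest on it are therefore given with and without it. French bulldogs 2 and 8 carry the same case number in their labels. Their profiles had a Pearson r of 0.98 across genes, the highest of the 153 pairs of libraries, and their counts differed by more than counting noise (chi-square of 9.41 per degree of freedom over 15000 genes), as 2 samples of 1 tumor also could. The labels do not state whether these 2 are separate dogs. The study lists both among its dogs, as separate entries with the same age, sex and tumor site. They are counted here as 2 libraries, as labelled, so n counts libraries and p-values measure the spread between them, and results that change when the 2 are summed are given both ways.

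The secreted products of the response are VEGFA and ADM. VEGFA (ENSCAFG00000001938) had 31.3 CPM in the lowest French bulldog, a median of 66.6 and 314 in the highest. In the boxers it had 115, 253, 58.1 and 154 CPM (numbers 1, 3, 4 and 5), and in the Boston terriers 43.3, 255 and 409 (numbers 2, 6 and 7). Of the French bulldogs, 9 of 11 were below the median of the comparison group, but French bulldogs 7 and 11, with 314 and 216 CPM, were among the 5 highest libraries and the groups overlapped over most of their range. French bulldogs averaged 99.6 ± 87.3 CPM (SD, n = 11). The comparison group averaged 184 ± 130.1 CPM (SD, n = 7). The log2 fold change, French bulldog minus comparison, was -0.88 ± 0.49 (SE), with an unadjusted p of 0.0872 and an adjusted p of 0.520 by edgeR's quasi-likelihood test with Benjamini-Hochberg adjustment. It lay between -1.23 without French bulldog 7 and -0.55 without Boston terrier 7. The library names of the comparison dogs carry 2 ranges of numbers, and the value was -0.23 against the 4 dogs of library numbers 18 to 21 alone and -1.43 against the 3 dogs of numbers 1 to 3 alone.

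ADM (ENSCAFG00000007539) encodes adrenomedullin, a peptide that widens vessels and supports their growth. It split the French bulldogs. French bulldogs 6, 11 and 7 had 18.7, 9.62 and 7.81 CPM, above all 7 comparison dogs, and the other 8 had 0.558 to 1.73 CPM, below all 7. The boxers had 1.80, 5.85, 2.19 and 2.81 CPM and the Boston terriers 2.16, 6.52 and 2.24 CPM. The level was low, with 5 counts in French bulldog 2 and 180 in French bulldog 6. At the lower edge of the split French bulldog 10 had 17 counts and boxer 1 had 18, a gap within counting error. At the upper edge French bulldog 7 had 88 counts and Boston terrier 6 had 78. Between the groups the log2 fold change was 0.27 ± 0.70 (SE; adjusted p = 0.924, edgeR), and without French bulldog 6 it was -0.33 ± 0.59, so 1 library set its direction.

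CA9, SLC2A1 and HK2 act in pH control and glucose use. CA9 (ENSCAFG00000002077), a carbonic anhydrase on the cell surface that is a widely used tissue marker of hypoxia, was close to the limit of the depth in most dogs, with 5 to 59 counts. It had 0.586 CPM in the lowest French bulldog, a median of 1.24 and 2.48 in the highest. Boxers 3 and 4 and Boston terrier 7 had 4.84, 4.10 and 4.89 CPM, above all French bulldogs, and the other 4 comparison dogs had 0.659 to 1.92 CPM, within the French bulldog range. Its log2 fold change was -1.17 ± 0.41 (SE). The unadjusted p of 0.0102 was the smallest of the 8 genes, and the adjusted p over all genes was 0.433 by edgeR. The direction was the same without each dog in turn, with log2 fold changes of -1.34 to -0.97.

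SLC2A1 (ENSCAFG00000002500), the glucose transporter GLUT1 of brain vessels and many tumors, varied least. The French bulldogs had a lowest value of 18.7 CPM, a median of 81.3 and a highest of 120.4, and the comparison dogs 62.2, 78.6 and 116. The lowest value was that of French bulldog 6, and French bulldogs 2, 8 and 4 followed with 40.2, 45.2 and 45.7 CPM. The standard deviation of log2 CPM across the 18 dogs was 0.65, as large as the median of 0.65 over all genes tested, and the log2 fold change between groups was -0.21 ± 0.28 (SE; adjusted p = 0.815, edgeR). Without French bulldog 6 the standard deviation was 0.46, against a median of 0.55 over all genes, and the log2 fold change was -0.07.

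HK2 (ENSCAFG00000008265) encodes hexokinase 2, which phosphorylates glucose at the entry to glycolysis. French bulldog 6 had 233 CPM, and the next 2 French bulldogs, 5 and 4, had 28.5 and 27.4. The other 8 French bulldogs had 4.88 to 11.2 CPM. In the comparison group boxer 4 had 2.86 CPM, below all French bulldogs, and the other 5 apart from Boston terrier 6 had 15.5 to 21.7. Boston terrier 6, with 4.85 CPM (58 counts), was level with the lowest French bulldog, number 7 (55 counts). Its log2 fold change was 1.13 ± 0.81 (SE; adjusted p = 0.615, edgeR) with all dogs and -0.30 ± 0.44 without French bulldog 6. The macrophage markers of French bulldog 6 moved with this value, and their part in it was not tested.

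EGLN3 (ENSCAFG00000013182) is the HIF prolyl hydroxylase PHD3, itself induced by HIF and part of the feedback on it. French bulldog 6 had 93.8 CPM, and the other 10 French bulldogs had 4.80 to 26.2. The boxers had 19.2, 11.7, 12.2 and 6.48 CPM and the Boston terriers 7.62, 9.62 and 17.2. Apart from French bulldog 6 the groups covered nearly the same range. The log2 fold change went from 0.69 ± 0.54 (SE; adjusted p = 0.652, edgeR) to 0.04 ± 0.35 without that library.

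NDRG1 (ENSCAFG00000001141), a stress response gene that is also expressed by myelinating cells, was highest in French bulldog 11, with 185 CPM. French bulldogs 9 and 6 followed with 60.0 and 38.7, and the other 8 French bulldogs had 4.80 to 23.9. The comparison dogs lay close together, at 14.5 to 23.2 CPM in 6 of 7 and 8.19 in Boston terrier 2. The log2 fold change was 0.99 ± 0.61 (SE; adjusted p = 0.568, edgeR). Without French bulldog 11 it was 0.20, and without French bulldog 6 it was 1.02. In French bulldog 9 the summed CPM over 6 myelin markers was 8243, the highest of all dogs, and its part in the NDRG1 value was not tested.

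ANKRD37 (ENSCAFG00000007563), a small ankyrin repeat protein induced by HIF, had 1.59 CPM in the lowest French bulldog, a median of 3.56 and 7.99 in the highest. The boxers had 2.30, 8.50, 3.72 and 2.81 CPM and the Boston terriers 3.48, 9.62 and 2.65. Boston terrier 6 and boxer 3 were above all French bulldogs and the other 5 comparison dogs were within their range. French bulldog 11, with the highest NDRG1, had the lowest ANKRD37. Its log2 fold change was -0.26 ± 0.36 (SE; adjusted p = 0.829, edgeR).

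**Figure D1:**
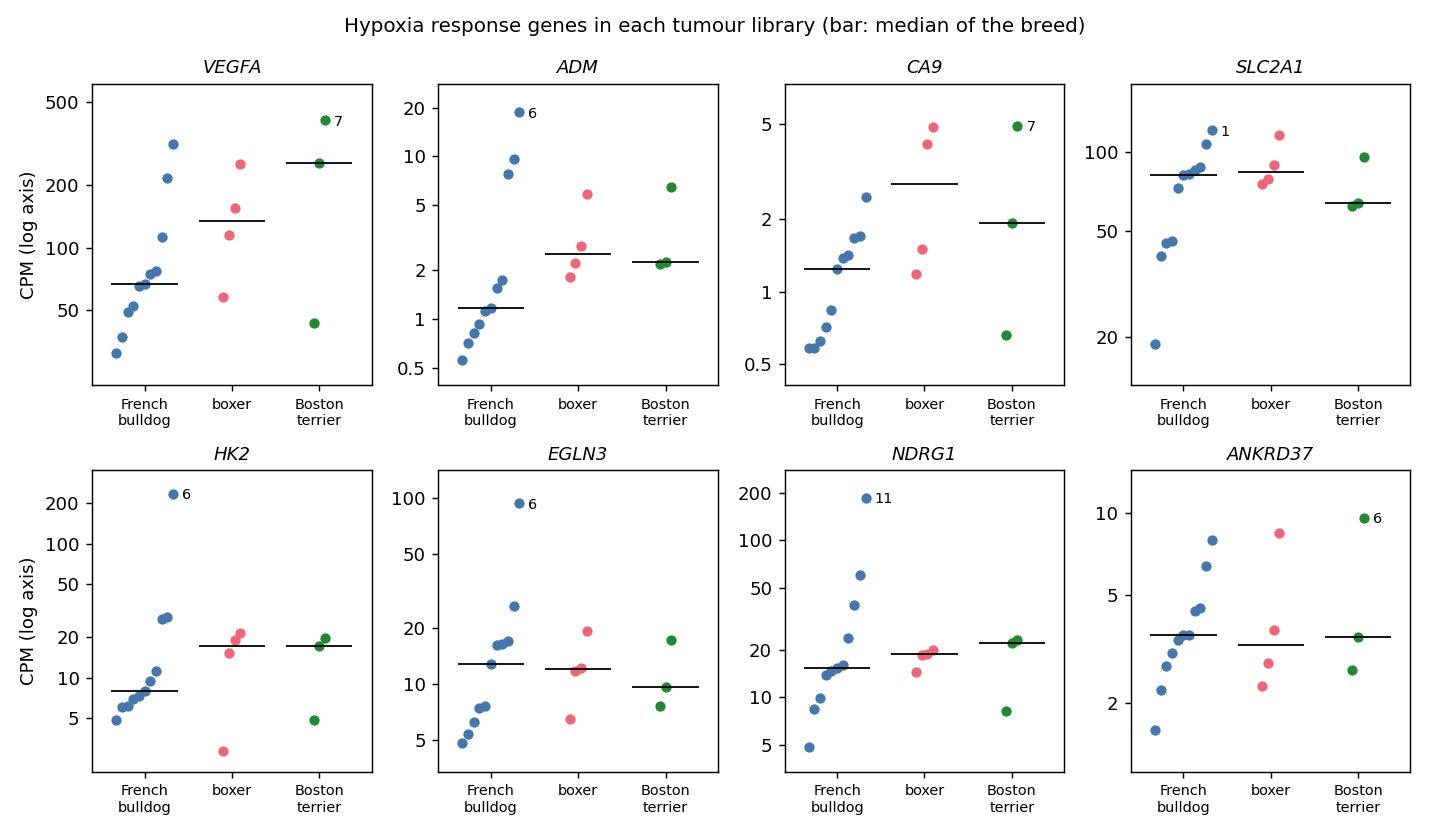
CPM of the 8 genes (vertical log axis, 1 panel per gene) in each library, grouped by breed, with the median of each breed as a bar and the number of the highest dog beside its point. French bulldog 6 is the highest library for ADM, HK2 and EGLN3 (18.7, 233 and 93.8 CPM), and French bulldog 11 is the highest for NDRG1 (185 CPM).

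Across the 8 genes, no member passed the adjusted threshold of 0.05 between French bulldogs and the comparison group. Over all 16495 genes tested, 1 did (0.00606%), which was FGF4. At an unadjusted p under 0.05, CA9 alone of the 8 was called, lower in French bulldogs, where 10.6% of all genes were called, 3.55% as lower and 7.02% as higher. A share of 1 in 8 is close to that background. By mean CPM 4 of the 8 were higher in French bulldogs, and 1 of the 8 without French bulldog 6. Of the 8 log2 fold changes 4 were positive and 4 negative, and their median was 0.03, against 0.04 over all genes. Without French bulldog 6 there were 2 positive and 6 negative values with a median of -0.27, against 0.05 over all genes, and CA9 was again the only 1 called at an unadjusted p under 0.05 (p = 0.0196 by edgeR), where 10.8% of all genes were called and 3.93% as lower.

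**Figure D2:**
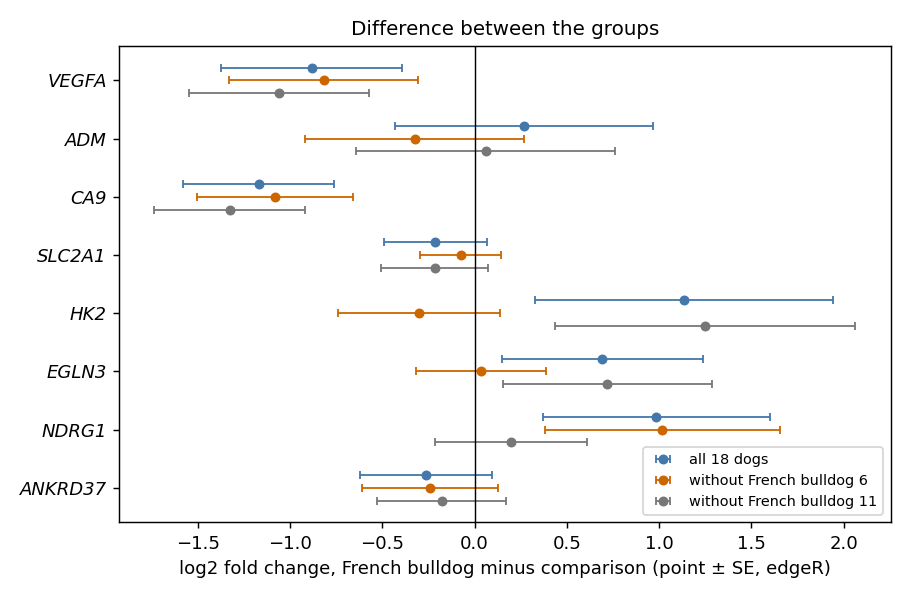
Log2 fold change of each gene between French bulldogs and the comparison group (horizontal axis, points with SE as bars, edgeR) with all 18 dogs, without French bulldog 6 and without French bulldog 11. HK2 moves from 1.13 to -0.30 and ADM from 0.27 to -0.33 without French bulldog 6, NDRG1 moves from 0.99 to 0.20 without French bulldog 11, and CA9 and VEGFA are negative in all 3 fits.

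Breed by breed, in a fit with the 3 breeds that shares the French bulldogs between contrasts, CA9 had a log2 fold change of -1.26 ± 0.49 (SE) against boxers and -1.04 ± 0.54 against Boston terriers. The unadjusted p values by edgeR were 0.0188 and 0.0712, and the adjusted p values 0.592 and 0.982. Against boxers 8.27% of all genes had an unadjusted p under 0.05 and 2.79% were lower in French bulldogs, and against Boston terriers 3.83%. VEGFA had a log2 fold change of -0.54 ± 0.59 against boxers and -1.24 ± 0.63 against Boston terriers. Boston terriers rested on few dogs: without Boston terrier 7 the CA9 value against that breed was -0.10 and the VEGFA value -0.58. Between boxers and Boston terriers none of the 8 genes was called at an unadjusted or adjusted p under 0.05 by edgeR, where 1.91% of all genes were called unadjusted, and the largest of these differences was that of VEGFA, at -0.70 ± 0.79 (boxer minus Boston terrier).

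Ranking the 18 dogs for each gene from the highest CPM (rank 1) showed which tumors were high for several genes. Boxer 3 had the best mean rank over the 8 genes, 5.75, with no rank worse than 10. Boston terriers 6 and 7 followed, with mean ranks of 6.38 and 6.75. Boston terrier 7 was first for VEGFA and CA9 but had rank 15 for ANKRD37, and Boston terrier 6 was first for ANKRD37 but had rank 17 for HK2. French bulldog 6 was first for ADM, HK2 and EGLN3 and last for SLC2A1, and held ranks 10 for VEGFA and 16 for CA9. At the other end were French bulldogs 8, 2 and 5, with mean ranks of 14.6, 14.5 and 13.5. French bulldog 5 was last for VEGFA, CA9 and NDRG1 yet second for HK2. French bulldogs 2 and 8, which share a case number, had a median absolute difference of 0.22 in log2 CPM over the 8 genes, the smallest of all 153 pairs. CA9 was the exception within that pair, at 1.67 and 0.712 CPM.

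**Figure D3:**
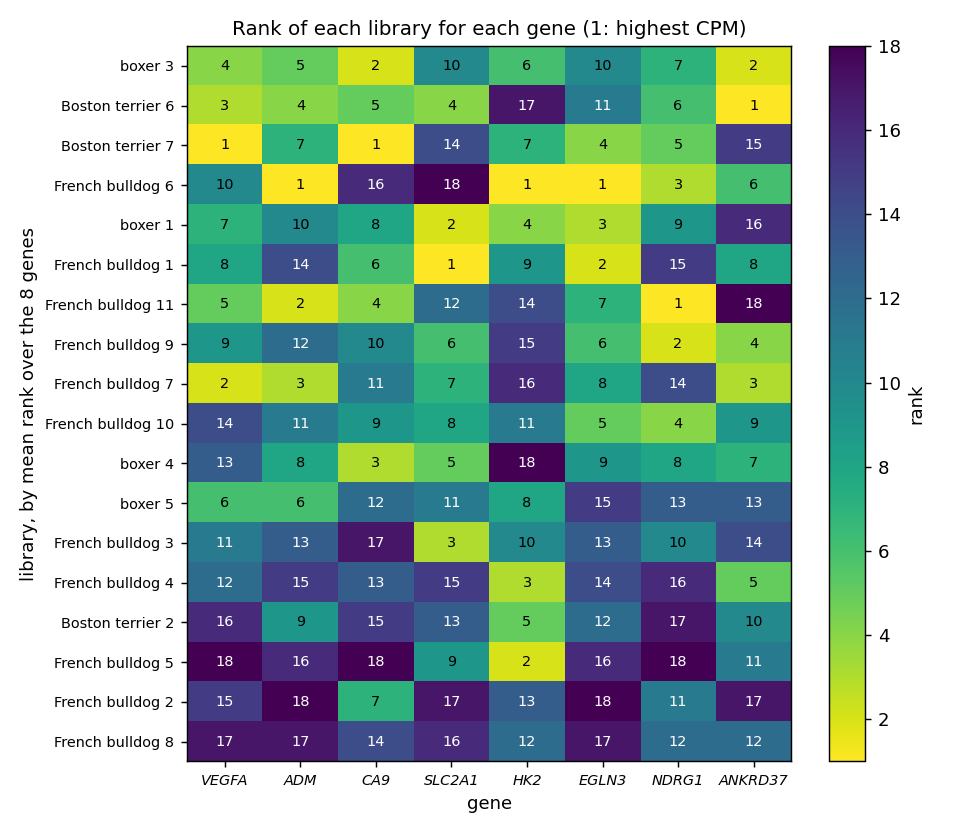
Rank of each library (rows, sorted by mean rank over the 8 genes) for each gene (columns), where 1 is the highest CPM and 18 the lowest. Boxer 3 has no rank worse than 10, and French bulldog 6 holds 3 first ranks and the last rank for SLC2A1.

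How far the other 7 genes moved with VEGFA from dog to dog was tested by a slope on log2 CPM of VEGFA with a term for the group, fitted across all genes. NDRG1 had a slope of 0.72 ± 0.25 (SE) log2 units per doubling of VEGFA and ADM had 0.72 ± 0.32, with unadjusted p values of 0.00944 and 0.0342 by edgeR. CA9 had 0.38 ± 0.18 (p = 0.0505), ANKRD37 0.28 ± 0.16, EGLN3 0.25 ± 0.30, SLC2A1 0.09 ± 0.14 and HK2 -0.16 ± 0.49. Leaving out each dog in turn moved the CA9 slope from 0.29 to 0.62 and that of ANKRD37 from 0.17 to 0.37. The EGLN3 slope ranged from 0.15 to 0.38 and that of SLC2A1 from 0.05 to 0.14. At an unadjusted p under 0.05, 2 of the 7 were called, both rising with VEGFA, where 5.66% of all genes were called and 2.42% were called as rising. None passed the adjusted threshold (smallest adjusted p 0.878, edgeR), and neither did any of the 16494 genes tested. The NDRG1 slope depended on French bulldog 11 and was 0.26 without it, with an unadjusted p of 0.294 by edgeR. With French bulldogs 2 and 8 summed the ADM slope was 0.66 ± 0.32 and no longer called (unadjusted p = 0.0561, edgeR). The ADM slope was 0.87 ± 0.17 without French bulldog 6, with an adjusted p of 0.357 by edgeR. Without that dog 3 of the 7 genes were called at an unadjusted p under 0.05, all rising, where 9.92% of all genes were called and 5.66% were called as rising.

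The DESeq2 Wald test, the study's own tool, gave the ADM slope an adjusted p of 0.00671 without French bulldog 6, a combination chosen after the data were seen. By that fit, which was run on 27015 genes with DESeq2's own filtering, 39 genes passed the adjusted threshold, against 0 of the 16402 genes that edgeR tested on the same dogs after its filter, so tool and filter both differed.

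By correlation ADM and CA9 stood closest to VEGFA. ADM had a Spearman rho of 0.70 with VEGFA over the 18 dogs (permutation p = 0.00172, adjusted p over all genes 0.273) and a Pearson r of 0.60 (permutation p = 0.00876, adjusted 0.545). CA9 had a rho of 0.58 (permutation p = 0.0127, adjusted 0.275) and an r of 0.62 (permutation p = 0.00626, adjusted 0.545). EGLN3 had a rho of 0.48 (permutation p = 0.0467, adjusted 0.339) and an r of 0.26 (permutation p = 0.299, adjusted 0.796). For NDRG1, SLC2A1, ANKRD37 and HK2 rho was 0.40, 0.26, 0.20 and -0.20, and r was 0.38, 0.24, 0.29 and -0.13, with permutation p values of 0.0975 or more for rho and 0.115 or more for r. Over all genes, 2390 (14.5%) had a permutation p under 0.05 for rho and 1441 (8.74%) for r, and none passed the adjusted threshold. That threshold was out of reach for a single gene, since the smallest p of 1e-05 becomes 0.165 after adjustment. With French bulldogs 2 and 8 summed, 1504 genes had a permutation p under 0.05 for rho and 918 for r, and EGLN3 was no longer among them (rho 0.40, permutation p = 0.113).

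Boston terrier 7 and French bulldog 7 were the 2 dogs farthest from the median of VEGFA. Without them r was 0.64 for ADM, 0.60 for CA9, 0.49 for NDRG1 and 0.25 for EGLN3. Without French bulldog 6, which had the highest ADM at a middling VEGFA of 75.0 CPM, the ADM values were 0.77 for rho and 0.78 for r. Those of EGLN3 were 0.52 for rho and 0.48 for r. Within the 11 French bulldogs rho was 0.72 for ADM, 0.61 for EGLN3, 0.47 for CA9 and 0.37 for NDRG1. Within the 7 comparison dogs it was 0.68 for ADM, 0.18 for EGLN3, 0.68 for CA9 and 0.86 for NDRG1. Whether these values differ between the groups was not tested. VEGFA was also higher in larger libraries, though not past the adjusted threshold. Its rho was 0.52 with the total counts and 0.49 with the share of counts held by the single most abundant gene (permutation p = 0.0303 and 0.0416, both 0.0832 after adjustment over 4 measures), and the part of these measures in the correlations was not tested.

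**Figure D4:**
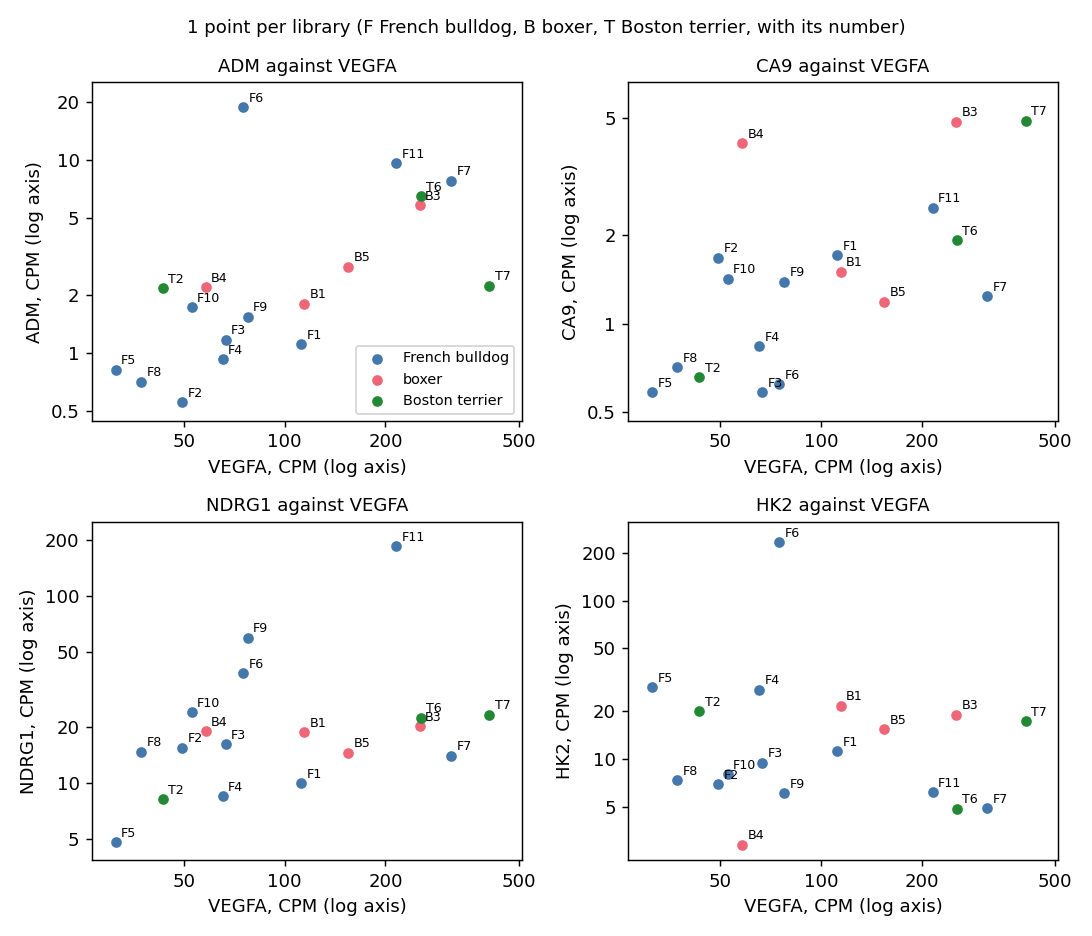
CPM of ADM, CA9, NDRG1 and HK2 (vertical log axes) against CPM of VEGFA (horizontal log axis), with 1 point per library colored by breed and labelled by its number. ADM tends to be higher at higher VEGFA, with points off this trend such as Boston terrier 7 (2.24 CPM at 409 CPM of VEGFA), French bulldog 1 (1.12 CPM at 112) and French bulldog 6 (18.7 CPM at 75.0), and HK2 shows no rise.

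Among themselves the 8 genes formed 28 pairs, of which 21 had a positive rho, with a median of 0.20. All 10 pairs among VEGFA, ADM, CA9, NDRG1 and EGLN3 were positive, from 0.31 for ADM with CA9 to 0.70 for VEGFA with ADM. Within the 11 French bulldogs all 10 were positive as well, and within the 7 comparison dogs 9 of 10 were, with -0.43 for ADM with EGLN3. These 5 genes were picked out after their values were seen, so this is a description. HK2 was negative with 6 of the other 7 genes, the lowest value being -0.43 with CA9, and without French bulldog 6 it was negative with all 7. SLC2A1 and ANKRD37 had values near 0 with NDRG1 (-0.01 and 0.00). Without French bulldog 6 the largest changes among these pairs included SLC2A1 with EGLN3, which went from 0.32 to 0.57. All pairs share the same libraries and scaling, and no p is given for them.

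**Figure D5:**
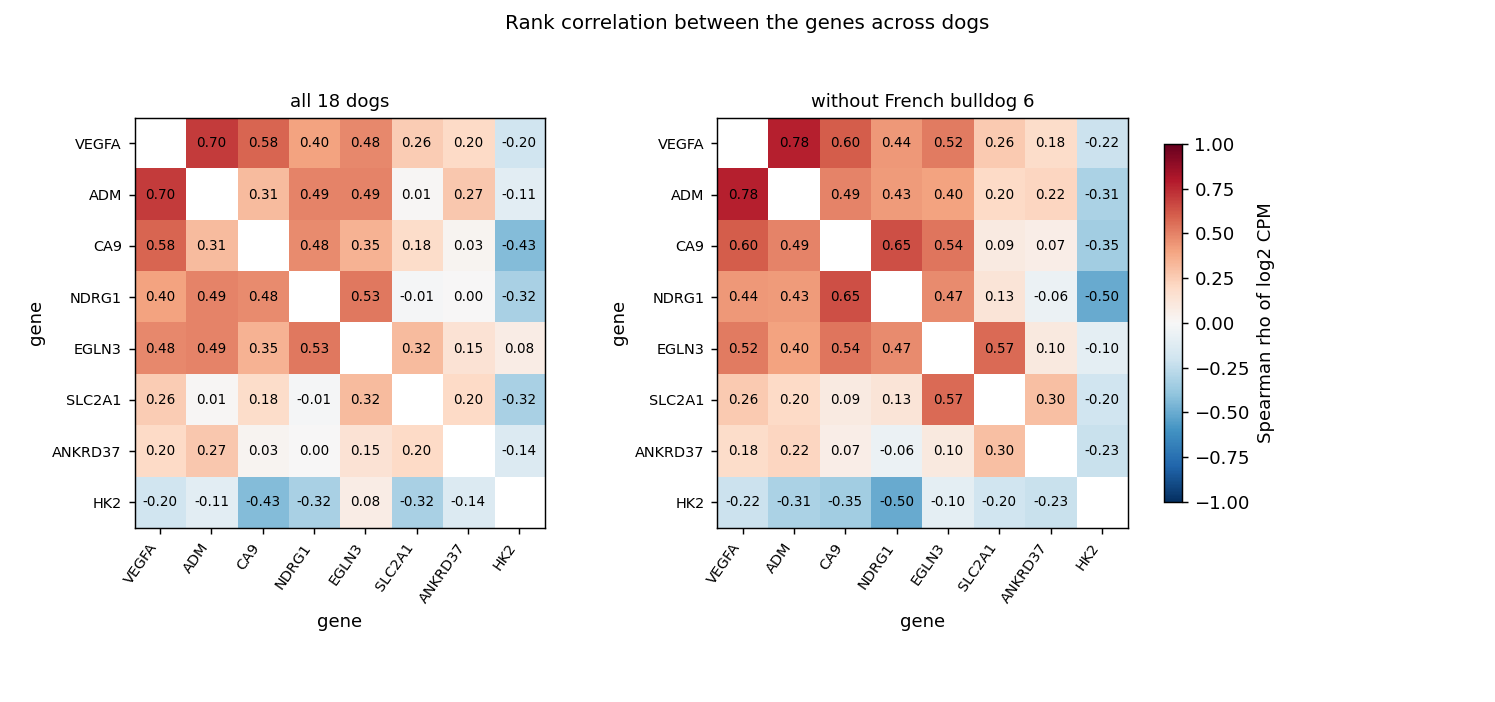
Spearman rho of log2 CPM between each pair of the 8 genes, over all 18 dogs (left) and without French bulldog 6 (right), with the value in each cell and color from -1 to 1. The 10 pairs of VEGFA, ADM, CA9, NDRG1 and EGLN3 are positive in both panels, and HK2 is negative with 6 of 7 genes on the left and with all 7 on the right.

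Outside the list, the 10 named genes with the highest rho with VEGFA over the 18 dogs were AGFG2 (0.82), ARSA (0.81), JUNB (0.80), RASA3 (0.79), GMIP, RNF40, CITED2, SLC13A5, DUSP1 and CALML6 (0.75 to 0.76). ADM held rank 33 among all genes by this measure. JUNB and DUSP1 are immediate early response genes, and CITED2 is induced by HIF and competes with it for its coactivator. The 5 with the lowest rho were ERGIC2 (-0.90), PGAP1 (-0.82), POLI (-0.80), QRSL1 (-0.79) and MANEA (-0.79). The permutation p for ERGIC2 was 1e-05, the smallest that 100000 permutations can give.

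The oxygen sensing and HIF list held 10 tested genes, of which 2 had an unadjusted p under 0.05 between the groups, beside 10.6% of all genes, and none passed the adjusted threshold. HIF1A, the alpha subunit found in most cells, had 63.2 CPM in the lowest French bulldog, a median of 103 and 269 in the highest, against 42.1, 70.7 and 99.5 in the comparison dogs. Its log2 fold change was 0.82 ± 0.29 (SE; unadjusted p = 0.0105, adjusted p = 0.433, edgeR). It was 0.67 without French bulldog 6, and 0.41 ± 0.21 without that dog and with French bulldogs 2 and 8 summed, where HIF1A was no longer called (unadjusted p = 0.0698, edgeR). EPAS1, the HIF-2 alpha subunit of vessels and glia, had the opposite sign, with 68.8, 251 and 441 CPM against 270.1, 340.2 and 595. Its log2 fold change was -0.76 ± 0.34 (unadjusted p = 0.0383, adjusted p = 0.452, edgeR), -0.64 without French bulldog 6 (unadjusted p = 0.0538, edgeR) and -0.66 with French bulldogs 2 and 8 summed (unadjusted p = 0.0520, edgeR). With both changes EPAS1 was at -0.60 and was called (unadjusted p = 0.0473, edgeR). The transcripts of HIF subunits do not show the oxygen-dependent step, which acts on the protein.

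On VEGFA itself, 2 of these 10 genes had a slope with an unadjusted p under 0.05, both with positive slopes, beside 5.66% of all genes called and 2.42% called as rising. Of the 10 slopes 5 were positive and 5 negative, with a median of 0.00, against -0.01 over all genes. BHLHE40, a transcriptional repressor induced by HIF, had 0.59 ± 0.20 (SE; unadjusted p = 0.00763, adjusted p = 0.878, edgeR), and CITED2 had 0.43 ± 0.15 (unadjusted p = 0.0107, adjusted p = 0.878, edgeR). HIF1A had a slope of -0.01 ± 0.14 and EPAS1 of 0.17 ± 0.16. By rank correlation CITED2 and BHLHE40 rose with VEGFA (rho 0.76 and 0.56), and EGLN1 and VHL fell (rho -0.59 and -0.51). For the falling 2 the permutation p was 0.0116 and 0.0318 (adjusted 0.275 and 0.312), beside 14.5% of all genes under 0.05.

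Of 15 glycolysis genes matched by symbol 14 passed the filter on low counts and were tested. None of these had an unadjusted p under 0.05 between the groups (0 adjusted, edgeR), beside 10.6% of all genes, and their median log2 fold change was 0.04, as over all genes. On VEGFA 12 of the 14 slopes were positive with a median of 0.18, against -0.01 over all genes. PFKFB3, which makes the activator of phosphofructokinase, had a slope of 0.26 ± 0.10 (SE; unadjusted p = 0.0154, edgeR), and PFKP, a phosphofructokinase, had 0.34 ± 0.16 (unadjusted p = 0.0422, edgeR). These were the 2 called without adjustment, and neither passed it (adjusted p = 0.878 for both). Without French bulldog 6 there were 5, among them PGK1 at 0.27 ± 0.07, and the share over all genes was also higher, 9.92% against 5.66%. With French bulldogs 2 and 8 summed there was 1, PFKFB3, where 660 of all 16583 genes were called, against 933 of 16494 with the 2 kept apart.

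Of 24 other hypoxia-induced genes tested, 1 had an unadjusted p under 0.05 between the groups, a smaller share than the 10.6% of all genes. ERO1A, an oxidase of the endoplasmic reticulum, had 170.4 CPM in French bulldog 6 and 13.5 to 29.6 in the other French bulldogs, against 10.4 to 17.5 in the comparison dogs. Its log2 fold change was 1.24 ± 0.48 (SE; unadjusted p = 0.0179, adjusted p = 0.433, edgeR) and 0.53 ± 0.17 without French bulldog 6 (unadjusted p = 0.00638, adjusted p = 0.368, edgeR). On VEGFA, IGFBP3 and ANGPTL4 were among those called without adjustment, both with positive slopes, beside 5.66% of all genes called and 2.42% called as rising. IGFBP3, which binds insulin-like growth factors, had the steepest, 2.76 ± 0.47 (adjusted p = 0.270, edgeR). It had 93.8 CPM in French bulldog 11, at most 5.35 in any other dog and no count in French bulldogs 2, 5 and 8 and boxer 4. Without French bulldog 11 its slope was 1.76 ± 0.59 (unadjusted p = 0.00884, adjusted p = 0.998, edgeR). By the DESeq2 Wald test on all dogs its adjusted p was 1.34e-06, and that test was not run without French bulldog 11.

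Genes of the vessels that VEGFA acts on had mostly positive slopes on it, and none passed the adjusted threshold. Of 9 other VEGF family members and receptors 8 passed the filter on low counts, and of these 7 had positive slopes on VEGFA, with a median of 0.24, and none had an unadjusted p under 0.05 (edgeR, 0 adjusted). KDR, the main signaling receptor of VEGFA on endothelial cells, had 0.31 ± 0.18 (SE) and FLT1, which binds VEGFA and limits it, had 0.19 ± 0.12. Of 9 endothelial markers 8 had positive slopes with a median of 0.30, and of 5 pericyte markers all 5 did, with a median of 0.40. PDGFB, which endothelial cells make to recruit pericytes, had 0.51 ± 0.20 (unadjusted p = 0.0217, edgeR), and its receptor PDGFRB and NOTCH3 on pericytes had 0.40 ± 0.18 and 0.49 ± 0.22 (unadjusted p = 0.0409 and 0.0366, edgeR). With French bulldogs 2 and 8 summed these 2 pericyte genes were no longer called (unadjusted p = 0.0730 and 0.0618, edgeR). Leaving out French bulldog 6, the receptor gene NRP1 and 3 of the 9 endothelial markers were called, all with positive slopes, where 5.66% of all genes were called as rising, against 2.42% with all dogs. Between the groups all 9 endothelial markers and all 5 pericyte markers had negative log2 fold changes, with medians of -0.25 and -0.50 and no unadjusted p under 0.05 (edgeR, 0 adjusted). In the fit without French bulldog 6, 2 of the 9 and 1 of the 5 were positive, with medians of -0.17 and -0.41. Against Boston terriers alone 3 of the 9 and 3 of the 5 were positive. VEGFC, the lymphatic growth factor of the family, had a log2 fold change of 0.85 ± 0.45 (unadjusted p = 0.0762, edgeR).

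Markers of other cells were examined along VEGFA in the same fit. Of 5 neutrophil markers 3 passed the filter on low counts, and all 3 had positive slopes and an unadjusted p under 0.05, S100A8 at 0.47 ± 0.14 (SE; p = 0.00321), CSF3R at 1.20 ± 0.49 (p = 0.0238) and S100A12 at 1.02 ± 0.45 (p = 0.0374), each with an adjusted p of 0.878 by edgeR, beside 2.42% of all genes called as rising. S100A12 was no longer called with French bulldogs 2 and 8 summed (unadjusted p = 0.0537, edgeR). The summed CPM over 5 neutrophil markers was 7.73 to 56.9 in French bulldogs and 14.9 to 144.3 in the comparison dogs, with the highest value in Boston terrier 6. The 5 oligodendrocyte lineage markers and the 6 proliferation genes all had negative slopes, with medians of -0.21 and -0.28 and no unadjusted p under 0.05 (edgeR, 0 adjusted), and 1 of them, NKX2-2, was called without French bulldog 6. All 7 neuron markers had positive slopes, with a median of 0.18, and 6 of 7 did with French bulldogs 2 and 8 summed. Of 5 astrocyte markers 3 had positive slopes and of 6 myelin markers 4 did, with medians of 0.10 and 0.03, and the myelin median was -0.05 with those 2 libraries summed. None of these 3 lists held a gene at an unadjusted p under 0.05 (edgeR, 0 adjusted). The 12 macrophage and microglia markers had a median slope of 0.13, with none called. Without French bulldog 6 the median was 0.30 and 2 of the 12 were called, TYROBP and C1QA, both with positive slopes, beside 9.92% of all genes. Between the groups 6 of these 12 had an unadjusted p under 0.05, all higher in French bulldogs, beside 7.02% of all genes called as higher. None of the 12 was called without that dog (0 adjusted, edgeR), beside 10.8% of all genes, and 1 was, CD163 at 0.98 ± 0.44 (unadjusted p = 0.0412, edgeR), when French bulldogs 2 and 8 were summed as well. Of the 3 neutrophil markers tested CSF3R and S100A12 were called lower in French bulldogs, at -2.22 ± 0.83 and -2.10 ± 0.82 (SE; unadjusted p = 0.0151 and 0.0185, adjusted p = 0.433 for both, edgeR), beside 3.55% of all genes called as lower. The third, S100A8, had the opposite sign, at 0.28, and was not called. CSF3R and S100A12 were both highest in Boston terrier 6, with 96.3 and 21.0 CPM. Their next highest values were 28.8 in boxer 3 and 5.05 in Boston terrier 7. Of the 6 proliferation genes 3 were called higher (TOP2A, BUB1 and MKI67, 0 adjusted), beside 7.02% of all genes. The number was 1 without French bulldog 6, where 1135 of all 16403 genes were called as higher. It was also 1 with 2 and 8 summed, where 1070 of all 16584 genes were. The part of these markers in the slopes of the hypoxia genes was not tested.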

How the data were processed

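The authors trimmed paired-end reads (Trimmomatic 0.33), mapped them with HISAT2 2.1.0 to canFam6 and counted them with featureCounts. Raw gene counts, not normalized, were deposited for 29993 genes, and strand and multi-mapping settings are not given in the sources used here. Groups came from the sample labels.

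Counts were tested with edgeR 4.0.16 (R 4.3.3): TMM, filterByExpr by group, robust quasi-likelihood F tests, two-sided, with Benjamini-Hochberg adjustment over all genes tested and a threshold of 0.05. SE was obtained from the log2 fold change and its F value. Log2 CPM used a prior count of 2. Correlations used 100000 permutations of the dogs, or all 5040 orders for 7 dogs. The 3-count floor covers counting error only. The scripts were tested on simulated data. Alternatives were the DESeq2 1.42.0 Wald test, limma-voom (limma 3.58.1), other scalings and filters, summing French bulldogs 2 and 8, leaving out each dog, parts of the comparison group and a block for dog numbers. Tables and figures used Python 3.11.15, numpy 2.4.6, pandas 2.3.3, scipy 1.17.1 and matplotlib 3.10.9.

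The members and gene lists were chosen with earlier results of these data known. Named were the members, up to 4 genes of the smallest p per list and comparison, and the 10 highest and 5 lowest genes by rho with VEGFA. Library names carry numbers from 1 to 12 in French bulldogs and 18 to 21 and 1 to 3 in comparison dogs, and the labels do not say which libraries were run together, so a run effect on the breed comparison could not be tested. No sequence or position is given because the annotation used here is of another build. A result of the list of other hypoxia-induced genes is not reported here.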

Additional observations from a re-analysis of the deposited data

How the results depend on the processing

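Depth limits CA9 and ADM most, each with 5 counts in its lowest dog, and neither had a value with at least 10 counts in every dog. No member passed the adjusted threshold between the groups under any alternative run, and on VEGFA only ADM did, with a slope of 0.87 by the DESeq2 Wald test without French bulldog 6. The causes of the differences below were not tested, except that fewer dogs or more genes were fitted where the setting says so, and that DESeq2 replaces outlying counts in large groups and was run on more genes (27192 between the groups, against 16495).

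Between French bulldogs and the comparison group, 1 gene passed the adjusted threshold. The number was 58 by DESeq2 and 62 by DESeq2 without French bulldog 6, 2 by limma-voom and by upper quartile scaling, and 0 with at least 10 counts in every dog, with French bulldogs 2 and 8 summed, without French bulldog 6 and with that sum, with comparison dogs of library numbers 18 to 21 or 1 to 3 alone, with boxers alone, and with the replicate block, and it was 0 to 7 without each dog in turn. Genes at an unadjusted p under 0.05 numbered 1744, and 3153 with no filter, 849 and 767 with library numbers 18 to 21 and 1 to 3 alone, 631 with Boston terriers alone, and 1294 to 2095 without each dog. For the slope on VEGFA 0 genes passed, and 19 by DESeq2, 39 by DESeq2 without French bulldog 6 and 0 to 1 without each dog. Unadjusted there were 933, and 1573, 2323 in those fits, 1702 with no filter, 415 without French bulldog 11 and 1627 without French bulldog 6.

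Against boxers 0 genes passed, and 23 by DESeq2, 33 by DESeq2 without French bulldog 6 and 0 to 2 without each dog; unadjusted there were 1364, and 2285 and 2316 in those fits, 2312 with no filter and 927 to 1754 without each dog. Against Boston terriers 1 passed, and 8 by DESeq2, 14 by DESeq2 without French bulldog 6, 0 by limma-voom and without French bulldog 6 with 2 and 8 summed, and 0 to 1 without each dog. Unadjusted there were 631, and 1246 and 1428 in the DESeq2 fits, 1156 with no filter, 315 without Boston terrier 6 and 871 without French bulldog 6. Between boxers and Boston terriers there were 315 unadjusted, and 791, 1065, 905 with no filter, 551 without French bulldog 6 with 2 and 8 summed, 146 without Boston terrier 7 and 587 without French bulldog 6.

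Some log2 fold changes turned direction or shrank. NDRG1 went from 0.99 to 0.23 by limma-voom and 0.07 by DESeq2 without French bulldog 6. ADM went from 0.27 to -0.59 by limma-voom, to -0.33 by DESeq2 without French bulldog 6 and to -0.15 without it with 2 and 8 summed. HK2 went from 1.13 to -0.30 by DESeq2 with and without French bulldog 6 and to -0.25 without it with 2 and 8 summed, and EGLN3 went to -0.12 in the last of these. Without each dog in turn ADM ranged from -0.33 to 0.51, HK2 from -0.30 to 1.26 and ANKRD37 from -0.42 to 0.0126, and the HK2 slope on VEGFA from -0.28 to 0.0827. By mean CPM 1 to 5 members were higher in French bulldogs without each dog. Within the 7 comparison dogs SLC2A1 had an r of -0.0823 and a rho of -0.14 with VEGFA, and HK2 an r of 0.17.

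The dog numbers were treated as names only. Of 7 pairs of the same number 3 had a correlation of residuals over 0.1 (range -0.50 to 0.20), and 2 of 7 French bulldogs correlated best with their own number. So few pairs cannot show whether the numbers carry a pairing. With the replicate block on numbers 1 to 7, 967 genes between the groups and 141 for the slope had an unadjusted p under 0.05, 0 passed the adjusted threshold between the groups, ADM and NDRG1 were -0.66 and -0.43, and the slopes of SLC2A1 and EGLN3 were -0.0244 and -0.43. That fit also left out French bulldogs 8 to 11, so the part of the block alone in these values was not tested.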
